A study of Mus musculus with 22 samples.

Results

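EZH2 peaks that no MTF2 peak overlapped by at least 1 bp were taken from the peak lists of wild-type mouse embryonic stem cells. They numbered 1382 of 7213 EZH2 peaks, or 19.2%, and the other 5831 overlapped an MTF2 peak. The peaks were chosen by the wild-type positions of EZH2 and MTF2 in these lists, so their distance to MTF2 is given as a description. Both lists came from chromatin immunoprecipitation followed by sequencing (ChIP-seq) in cells grown in serum with LIF. The groups were Mtf2 GT/GT cells, homozygous for a gene-trap cassette that interrupts the coding sequence of Mtf2, with lists of EZH2, H3K27me3 and H3K4me3, and wild-type E14 cells, with lists of EZH2, MTF2, H3K27me3 and H3K4me3. Per the labels, each list stands for 2 libraries. Which line the gene trap was made in is not given in the labels, so genotype and line cannot be told apart. The lists hold positions alone, so depth is unknown and no error between replicates could be given. Whether a peak missing from a list lay just under its threshold was not tested.

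EZH2 is the catalytic subunit of Polycomb repressive complex 2 (PRC2), which lays down H3K27me3 on silent developmental genes. MTF2 is a Polycomb-like partner of PRC2 that binds CpG-rich DNA, and PRC2 in stem cells is typically found at CpG islands, where H3K4me3, a mark of promoters made by other enzymes, often lies on the same DNA. PRC2 also recognises the H3K27me3 it has made, through its EED subunit, and can extend the mark from a site of first binding into the surrounding chromatin.

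Sequences from the centres of 5 EZH2 peaks without MTF2 are given as examples of their base composition. Each is 200 bp of the plus strand of GRCm38, and capitals mark GCG on either strand, that is GCG or CGC. Tppp (chr13:74009988-74010187) is the widest promoter peak with H3K27me3 and H3K4me3, Nr2f2 (chr7:70367660-70367859) the widest with H3K27me3 alone and Ifnz (chr4:88781453-88781652) the widest with neither mark. Ddhd1 (chr14:45657447-45657646) is the widest with H3K4me3 alone whose central bases lie outside annotated UTRs. Hoxb3 (chr11:96324245-96324444) is the widest of those that still overlapped EZH2 in gene-trap cells. Slc9a3 (chr13:74121214-74121413) is shown for contrast, as the EZH2 peak with MTF2 nearest to Tppp.
Tppp: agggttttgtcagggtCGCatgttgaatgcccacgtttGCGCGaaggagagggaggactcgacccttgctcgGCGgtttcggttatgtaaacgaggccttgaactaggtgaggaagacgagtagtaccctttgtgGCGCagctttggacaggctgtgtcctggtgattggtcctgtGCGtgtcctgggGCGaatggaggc
Nr2f2: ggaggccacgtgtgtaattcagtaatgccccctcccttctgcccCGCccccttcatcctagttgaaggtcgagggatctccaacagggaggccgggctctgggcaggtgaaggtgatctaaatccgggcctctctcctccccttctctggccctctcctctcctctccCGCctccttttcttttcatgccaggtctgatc
Ddhd1: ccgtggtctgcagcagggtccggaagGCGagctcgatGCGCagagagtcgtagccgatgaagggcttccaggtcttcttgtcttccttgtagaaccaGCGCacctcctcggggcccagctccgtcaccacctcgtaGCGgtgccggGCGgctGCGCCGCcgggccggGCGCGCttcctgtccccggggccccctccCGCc
Ifnz: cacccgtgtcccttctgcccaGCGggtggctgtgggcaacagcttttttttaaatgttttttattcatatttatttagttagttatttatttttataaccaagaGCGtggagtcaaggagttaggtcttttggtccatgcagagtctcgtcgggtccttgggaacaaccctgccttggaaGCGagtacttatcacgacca
Hoxb3: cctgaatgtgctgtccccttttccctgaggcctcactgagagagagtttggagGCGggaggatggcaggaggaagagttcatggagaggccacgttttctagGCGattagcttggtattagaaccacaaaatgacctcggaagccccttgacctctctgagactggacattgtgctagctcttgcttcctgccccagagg
Slc9a3: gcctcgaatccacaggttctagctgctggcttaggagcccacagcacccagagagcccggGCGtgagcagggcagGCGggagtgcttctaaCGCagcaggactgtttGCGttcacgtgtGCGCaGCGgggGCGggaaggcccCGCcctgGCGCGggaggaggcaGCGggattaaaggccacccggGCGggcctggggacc
The sequence at Ddhd1 held 22 CpG and 15 GCG, and that at Tppp held 13 CpG and 9 GCG. Those at Ifnz, Nr2f2 and Hoxb3 held 7, 6 and 4 CpG. The peak with MTF2 at Slc9a3 held 16 CpG and 14 GCG, fewer than Ddhd1 and more than Tppp.

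EZH2 peaks without MTF2 were narrow and many lay close to MTF2. Their median width was 256.5 bp (95% interval 246 to 264), against 1006 bp (977 to 1042) for EZH2 peaks with MTF2. Under 500 bp were 1239 of the 1382 (89.7%), against 1238 of the 5831 with MTF2 (21.2%). Together they made up 4.87% of the bases covered by EZH2. The nearest MTF2 peak was a median of 660 bp away (554 to 856), and 755 of them (54.6%, 52.0 to 57.3) had MTF2 within 1 kb. A further group was remote, with 238 (17.2%) more than 100 kb from MTF2. The label "without MTF2" therefore means no overlap in the deposited lists and, for 54.6% of the peaks, does not mean far from MTF2.

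**Figure D1:**
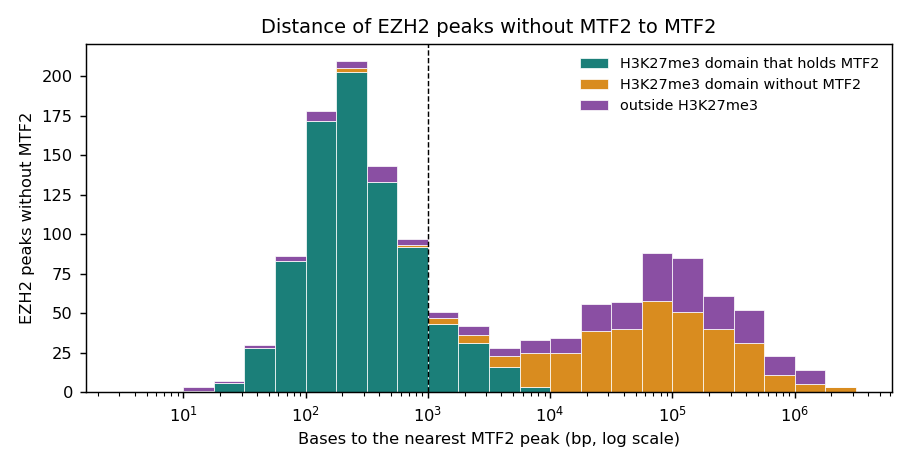
Number of EZH2 peaks without MTF2 (vertical axis) by the bases between each and the nearest MTF2 peak (horizontal axis, log scale), coloured by H3K27me3 surroundings, with a dashed line at 1 kb. The counts form a high hump below 1 kb, made mostly of peaks in H3K27me3 domains that hold MTF2, and a low one around 100 kb made of the other classes.

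At the limit of the choice, the EZH2 peak nearest to MTF2 without touching it had a gap of 4 bp. It lay 9147 bp from the start site of Zfp30, the nearest with predicted genes passed over. The next, at Gdf10, a BMP family ligand, had a gap of 11 bp. Just beyond the limit, EZH2 peaks near Adcyap1, Nfil3 and Ltbp2 overlapped MTF2 by 1, 2 and 4 bp. At the far end, a peak 77247 bp from the start site of Arrdc3 was 2559910 bp from any MTF2 peak. A peak at the promoter of Clcn4, a chloride transporter, was 2172034 bp away, and one at Mansc1 1538694 bp away.

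The peaks fell into 3 classes by their H3K27me3 surroundings, defined after the values were seen. In the first, 812 peaks (58.8%) lay in 580 H3K27me3 domains that also held MTF2, and 719 of these had MTF2 within 1 kb. In the second, 344 peaks (24.9%) lay in 313 H3K27me3 domains without MTF2, at a median of 70620.5 bp from it. In the third, 226 peaks (16.4%) overlapped no H3K27me3, and 43 of these had H3K27me3 within 1 kb. That peaks of the first class were close to MTF2 follows in part from how it was defined. Another EZH2 peak lay within 1 kb of 742 peaks of the first class (91.4%), against 59 of the second (17.2%) and 36 of the third (15.9%). Among EZH2 peaks with MTF2 the share was 39.6%. Of 664 MTF2 peaks within 1 kb of peaks without MTF2, 635 overlapped EZH2. The high share in the first class thus also follows in part from its definition. Most peaks of the other classes had no other EZH2 peak within 1 kb.

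The classes also differed in where they lay on genes. A promoter, here within 1 kb of the transcription start site (TSS) of a protein-coding gene, was touched by 601 EZH2 peaks without MTF2 (43.5%, 40.9 to 46.1), against 64.0% of those with MTF2 and 60.1% of all EZH2 peaks. A TSS lay inside 10.6% of peaks without MTF2 and 46.0% of those with it. Away from promoters, 157 (11.4%) touched an exon, 213 (15.4%) lay in introns and 411 (29.7%) between genes, against 10.8%, 6.04% and 19.2% of peaks with MTF2. By class, promoters held 32.4% of peaks in domains with MTF2, 54.4% in domains without MTF2 and 66.8% outside H3K27me3. Of EZH2 peaks with MTF2 outside H3K27me3, promoters held 62.6% (55.5 to 69.4). The median distance to a TSS was 2160 bp in domains with MTF2, 556.5 bp in domains without MTF2 and 248 bp outside H3K27me3, against 61 bp for peaks with MTF2.

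Most EZH2 peaks without MTF2 carried H3K27me3, and their H3K4me3 depended on the class. H3K27me3 overlapped 1156 (83.6%, 81.6 to 85.6), against 96.6% of EZH2 peaks with MTF2 and 94.1% of all EZH2 peaks. H3K4me3 overlapped 860 (62.2%, 59.6 to 64.8), against 91.3% with MTF2 and 85.7% of all. Both marks lay on 652, H3K27me3 alone on 504, H3K4me3 alone on 208 and neither on 18. H3K4me3 was found on 44.8% of peaks in domains with MTF2 (41.4 to 48.3), on 83.7% in domains without MTF2 (79.4 to 87.5) and on 92.0% outside H3K27me3 (87.7 to 95.2). The 504 peaks with H3K27me3 alone were thus mostly of the first class, which held 448 of them. Of EZH2 peaks with MTF2 outside H3K27me3, 91.9% carried H3K4me3 (87.2 to 95.3), close to the share without MTF2. No test was made, since there is 1 list per group, and intervals are exact Clopper-Pearson intervals that cover counting error over regions only.

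**Figure D2:**
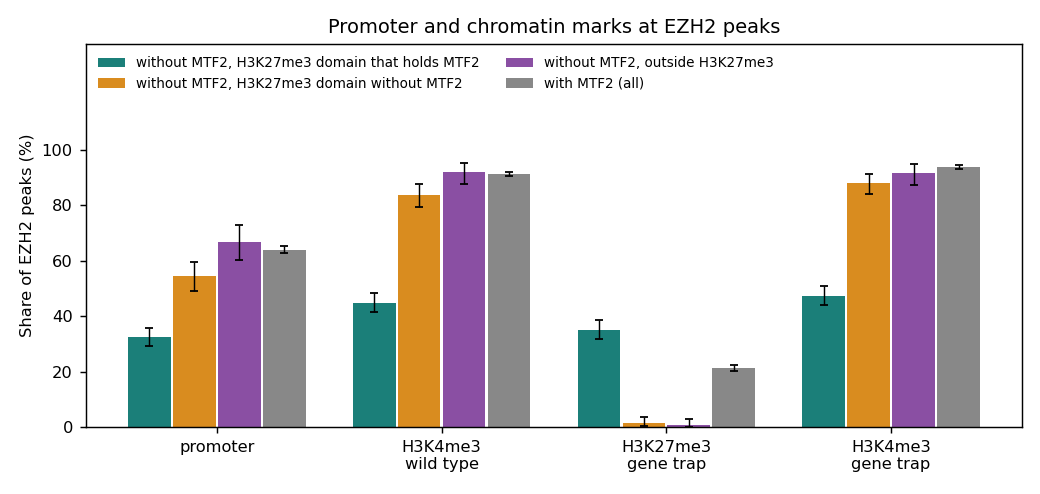
Share of EZH2 peaks (vertical axis, %) at a promoter or overlapping each mark, for the 3 classes without MTF2 and for all EZH2 peaks with MTF2, with exact 95% intervals. Peaks in domains that hold MTF2 have the lowest shares at promoters and with H3K4me3, and the highest share under gene-trap H3K27me3 (35.1%, against 1.74% and 0.885% in the other classes and 21.5% of peaks with MTF2). The classes are defined by wild-type H3K27me3, and domains that hold MTF2 are wider than those without.

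Width differs between the groups, so the peaks with MTF2 were also weighted to the widths of those without. H3K27me3 then lay on 83.6% of peaks without MTF2 and 89.8% of peaks with MTF2. H3K4me3 lay on 62.2% and 84.3%, and promoters held 43.5% and 54.8%. The shares without MTF2 remained the lower ones at equal width, by smaller margins.

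Among EZH2 peaks without MTF2, CpG was sparsest in those that share an H3K27me3 domain with MTF2. In the central 1 kb the median was 3.4 CpG per 100 bp without MTF2 (3.3 to 3.6), against 6.0 with MTF2 (6.0 to 6.1), and 4.7 with MTF2 after weighting to equal width. By class it was 2.25 in domains with MTF2 (2.1 to 2.4), 4.7 in domains without MTF2 (4.3 to 5.0) and 7.6 outside H3K27me3 (6.6 to 8.3). EZH2 peaks with MTF2 that lay outside H3K27me3 had 6.85 (6.5 to 7.4). The intervals for peaks outside H3K27me3 without and with MTF2 overlapped. Ddhd1, printed above, is one of those without, and Hoxb3 and Nr2f2 belong to the class with the fewest CpG. Most peaks without MTF2 are narrower than 1 kb, so that window includes their flanks. Over the whole peak the medians by class were 2.21, 6.57 (6.30 to 7.03) and 10.4, against 6.15 (6.07 to 6.23) with MTF2. In the central 300 bp they were 2.33, 6.67 and 10.3, against 7.67 with MTF2. The second class thus had a lower median than peaks with MTF2 in both central windows, and a higher one over the whole peak.

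GCG, which contains CpG and so overlaps with it, was counted because the series title names shape-selective DNA binding by MTF2. Its median on either strand was 2.2 per 100 bp without MTF2, against 4.5 with MTF2. By class it was 1.3, 3.3 and 5.8 in the same order as above. Over the whole peak the medians by class were 1.15, 5.10 and 8.52, against 4.63 with MTF2. At least 1 GCG stood in the central 300 bp of 1254 peaks without MTF2 (90.7%), against 99.0% of those with MTF2. Of 32851 RefSeq promoters of 300 bp, 80.7% held one. In the class that shares domains with MTF2 the share was 84.9%. These are counts of letters in the window, and windows away from EZH2 peaks and promoters were not counted.

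**Figure D3:**
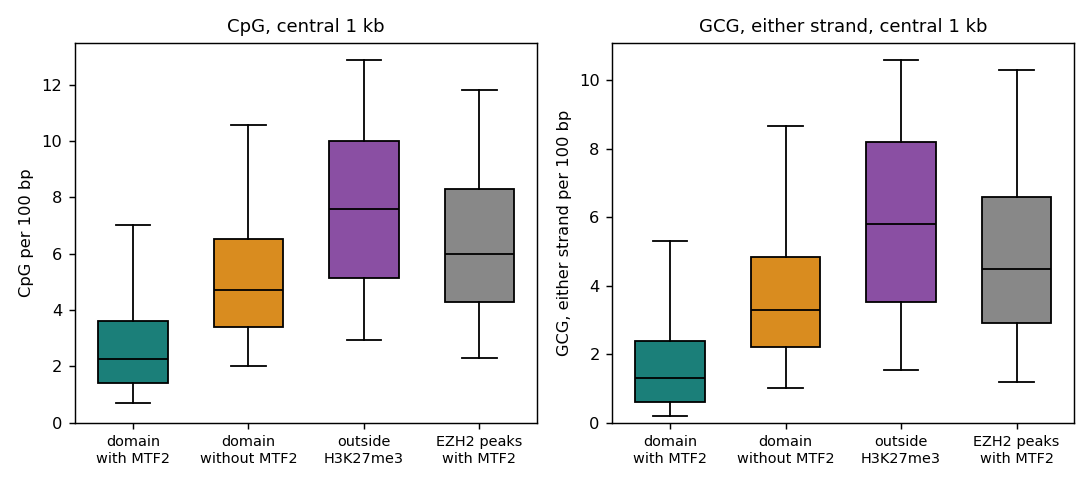
CpG (left) and GCG on either strand (right) per 100 bp in the central 1 kb, for the 3 classes of EZH2 peaks without MTF2 and for EZH2 peaks with MTF2. Boxes show quartiles with the median as a line, and whiskers the 5th and 95th percentiles; the medians for CpG are 2.25, 4.7 and 7.6 without MTF2 and 6.0 with MTF2.

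Within one H3K27me3 domain, peaks without MTF2 could be set beside their nearest EZH2 neighbour with MTF2. Such a neighbour existed for 800 of the 812 peaks. The peak without MTF2 had fewer CpG in 659 of the 800 pairs (82.4%) and as many in 28, with medians of 2.33 per 100 bp without MTF2 and 6 with MTF2 in the central 300 bp. H3K4me3 lay on the neighbour alone in 328 pairs, on the peak without MTF2 alone in 3, on both in 350 and on neither in 119. Of the 812, 290 (35.7%) had MTF2 on both sides inside the domain. Peaks of one domain share their surroundings and are not independent of each other. The pairs were not matched for peak width. Median widths were 258.5 bp for the 812 peaks and 1046 bp for all EZH2 peaks with MTF2 in H3K27me3 domains that hold MTF2.

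The H3K27me3 domains described next were picked because they held the most of these peaks. The domain over Hoxb1 to Hoxb9, regulators of the body axis, spanned 133253 bp and held 18 EZH2 peaks without MTF2 among 42 EZH2 peaks and 35 MTF2 peaks. The HoxC, HoxA and HoxD domains held 15, 11 and 7. At Nr2f2, which encodes the nuclear receptor COUP-TFII, a domain of 52159 bp held 7 of 16 EZH2 peaks without MTF2. None of these 7 carried H3K4me3. Domains that overlap Hox or Evx genes held 61 of the 1382 peaks without MTF2 in all, of which 8 (13.1%) carried H3K4me3, against 58.6% of the 111 EZH2 peaks with MTF2 there.

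**Figure D4:**
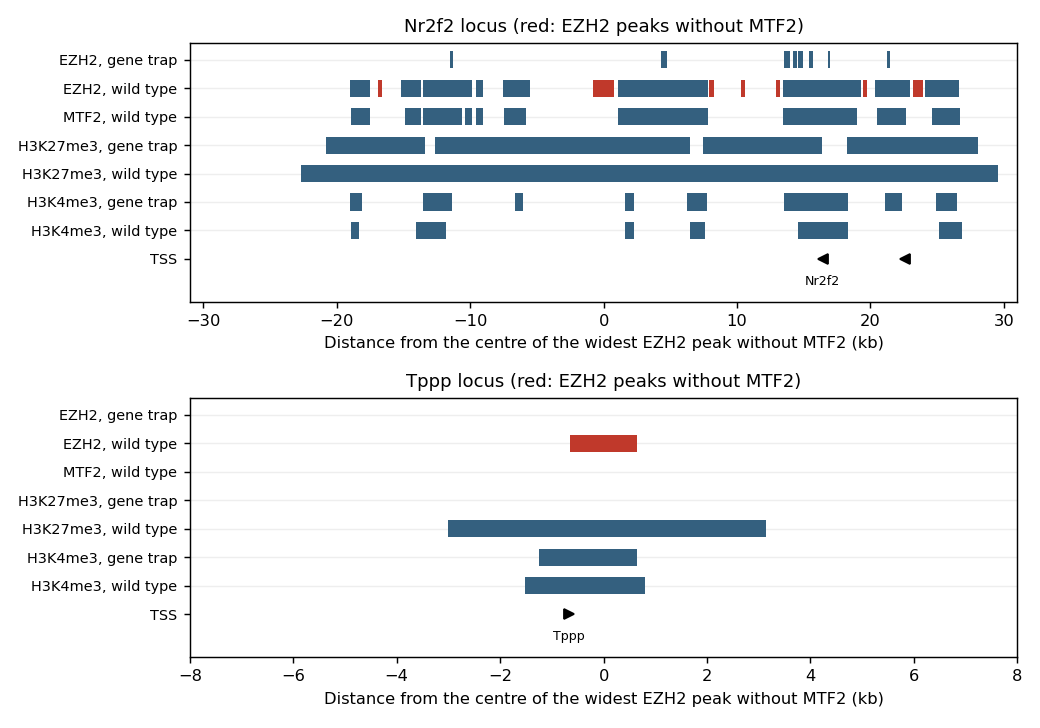
Peaks in each list at Nr2f2 (top) and Tppp (bottom) by distance in kb from the widest EZH2 peak without MTF2, with EZH2 peaks without MTF2 in red, other peaks in blue and arrowheads at TSSs. At Nr2f2 the 7 red peaks lie between and beside MTF2 peaks in a domain of 52159 bp that is largely still covered in gene-trap cells, whereas at Tppp the single EZH2 peak of 1312 bp has no MTF2 in view and no H3K27me3 in gene-trap cells.

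The widest peaks without MTF2 away from promoters included some at such loci and one in repeats. One of 1543 bp lay 15637 bp from the TSS of Nr2f2, and one of 1325 bp lay 2017 bp from that of Hoxa10. The widest of all, 1627 bp on chromosome 6 (47748233 to 47749859), carried neither mark. It was 63570 bp from the TSS of Pdia4, the nearest protein-coding one with predicted genes passed over. One of 1303 bp near Rhou on chromosome 8 overlapped an annotated rRNA gene, and 64.1% of it was repeat. Among the 18 peaks with neither mark the median repeat share was 20.1%, against 5.30% in the other 1364, and the part of repeats in calling these peaks was not tested.

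At promoters, the widest peak without MTF2 was at Tppp, a tubulin-polymerising protein of the brain, with 1312 bp on chromosome 13 (74009432 to 74010743). It lay in an H3K27me3 domain of 6133 bp, 110189 bp from MTF2. Impdh1, an enzyme of guanine nucleotide synthesis (1109 bp), Mypop, a Myb-related repressor (960 bp), Hid1, a protein of secretory granule formation (811 bp), and Frat1, a WNT pathway activator (753 bp), also lay in domains without MTF2. These 5 carried both marks, with 5.6 to 11.8 CpG per 100 bp. The other wide ones stood beside MTF2. The peak at Mlxipl, a glucose-sensing transcription factor, had a gap of 47 bp, that at Hoxb3 82 bp, that at Skida1 276 bp and that at Nr2f2 508 bp.

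Promoter peaks with H3K27me3 alone were led by homeobox and other developmental regulators. After Nr2f2 (795 bp) and Hoxb3 (743 bp) came Hmx2, of the inner ear (729 bp), Barx1, of stomach and teeth (657 bp), Foxd1, of kidney stroma (579 bp), and Zic4, of the cerebellum (544 bp). All 6 had MTF2 in their domain and H3K27me3 at the peak in gene-trap cells, and their CpG density was 0.5 to 2.6 per 100 bp. Promoter peaks with H3K4me3 alone were led by genes of other kinds. They were Kcnj12, an inward rectifier potassium channel (626 bp), Ddhd1, a phospholipase (605 bp), Ampd3, an AMP deaminase (571 bp), Acvr1, a BMP receptor that shares its window with Upp2 (530 bp), and Scrn1 (518 bp). These 5 lay 124395 to 667541 bp from MTF2, with 6.3 to 13.3 CpG per 100 bp. Promoter peaks with neither mark were at Ifnz, an interferon gene (283 bp), and at the adhesion receptor genes Adgrg6 (188 bp) and Adgrb3 (179 bp).

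Counted by gene, 579 genes had an EZH2 peak without MTF2 at the promoter, and 277 of these had MTF2 elsewhere in the window. Conversely, 306 of the 3628 genes with EZH2 at the promoter had no MTF2 there (8.43%). H3K27me3 was present at 200 of the 306 promoters without MTF2 (65.4%), against 96.9% of the 3322 with MTF2. H3K4me3 was present at 290 (94.8%), against 98.9%. In these lists the share with H3K4me3 was thus close between promoters without and with MTF2, and the share with H3K27me3 was lower without.

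Read against that background of 8.43%, lists of developmental genes had few promoters with EZH2 and no MTF2. There was none among 41 genes of the Hox clusters with EZH2 and none among 71 other developmental homeobox genes. Forkhead, T-box and GATA genes had 1 of 36 (Foxq1), Sox, bHLH and zinc finger regulators 1 of 51 (Nhlh2), and WNT, BMP, FGF, Hedgehog and Notch pathway genes 1 of 55 (Fgfr1). EZH2 peaks without MTF2 still touched 4 Hox promoters (Hoxb1, Hoxb3, Hoxc4 and Hoxc5), but each of these also had MTF2 in its window. Likewise the peaks at Barx1, Gata2, Sox1, Fgf10 and Bmp3 were 90 to 175 bp from MTF2.

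Genes of other lists are named singly, since the numbers are small. Axon guidance and adhesion genes had 2 of 56, the ephrin receptors Ephb2 and Ephb6. Neuronal channel, receptor and transmitter genes had 5 of 82, among them Kcnj2, Hcn2, a pacemaker channel, and Slc17a6, a vesicular glutamate transporter. Germline genes had 3 of 10 (Piwil2, Hormad1 and Kit), with peaks of 261 bp at Kit, the receptor for stem cell factor, and 244 bp at Piwil2, a piRNA pathway protein. Immune and blood genes had 2 of 26, Tnfrsf8 (461 bp) and Il4ra (333 bp). Extracellular matrix genes had 1 of 36 (Lama3). Both housekeeping genes with EZH2, B2m (233 bp) and Rpl7 (217 bp), lacked MTF2. So did Aebp2, itself a PRC2 partner, with a peak of 211 bp and H3K4me3 alone. None was found among 5 cell cycle inhibitors, 6 pluripotency, 16 imprinted and 10 PRC1 component genes with EZH2. These lists describe single promoters and were not tested against the rest.

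The gene-trap EZH2 list held peaks at nearly none of these sites. A gene-trap EZH2 peak overlapped 8 of the 1382 without MTF2 (0.579%, 0.25 to 1.14), against 335 of the 5831 with MTF2 (5.75%, 5.16 to 6.37) and 4.76% of all EZH2 peaks. Narrow peaks offer fewer bases for an overlap, and after weighting to equal width the share with MTF2 was 1.01%. The difference, without minus with MTF2, was -5.17 percentage points as measured and -0.433 at equal width. By class there were 5 in domains with MTF2, none of 344 in domains without MTF2 (an upper limit of 1.07%) and 3 outside H3K27me3.

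The 8 sites were of 2 kinds. Those at Hoxb3 and Hmx2, and those near Hoxd3, Hoxb5 and Vax2, a homeobox gene of the eye, lay in H3K27me3 domains of 18350 to 133253 bp with MTF2 within 1460 bp. All 5 carried gene-trap H3K27me3 and no H3K4me3, with gene-trap EZH2 peaks of 154 to 369 bp. The other 3 carried neither mark in wild-type cells and lay 55156 to 240777 bp from MTF2. One lay in an intron of St5 and one between genes, 11055 bp from the TSS of Hic2. The third lay in an intron of Camk1d, 241377 bp from the TSS of Ccdc3. Of these 3, the site by Hic2 alone carried H3K4me3 in gene-trap cells. Their gene-trap EZH2 peaks, of 265 to 276 bp, stood without H3K27me3 in gene-trap cells as well.

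H3K27me3 was called in gene-trap cells at 293 EZH2 peaks without MTF2 (21.2%, 19.1 to 23.5), against 21.5% with MTF2 and 21.5% of all EZH2 peaks. Within the peaks without MTF2 the share differed by class. Gene-trap H3K27me3 lay on 285 of 812 in domains with MTF2 (35.1%, 31.8 to 38.5), on 6 of 344 in domains without MTF2 (1.74%, 0.643 to 3.76) and on 2 of 226 outside H3K27me3 (0.885%). The 285 lay in 160 domains. The third class lacked H3K27me3 in wild-type cells by definition, and of 198 EZH2 peaks with MTF2 outside H3K27me3 none had gene-trap H3K27me3. The first 2 classes differed in median domain width, with 8897.5 bp where the domain held MTF2 and 2806.5 bp where it did not. Shares by domain width are given below. Domains that overlap Hox or Evx genes held 58 of the 293, and without those domains the share was 17.8%, against 20.1% with MTF2.

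At equal width of the EZH2 peak, the share under gene-trap H3K27me3 was higher without MTF2. From 500 to under 1000 bp, 54 of 134 were (40.3%, 31.9 to 49.1), against 10.1% of 1666 with MTF2 (8.74 to 11.7). Under 250 bp the shares were 18.3% without MTF2 and 9.67% with MTF2. At equal width of the surrounding H3K27me3 domain the order was the other way, but the intervals without and with MTF2 overlapped in each width class. In domains of 16 kb and over, 77.8% of peaks without MTF2 (72.1 to 82.8) and 79.1% with MTF2 (76.1 to 82.0) were under gene-trap H3K27me3. In domains of 8 to 16 kb the shares were 36.3% without and 43.0% with MTF2, from 4 to 8 kb 6.67% and 11.1%, and under 4 kb 0.718% and 1.90%. The width of the domain thus moved with this outcome in both groups.

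**Figure D5:**
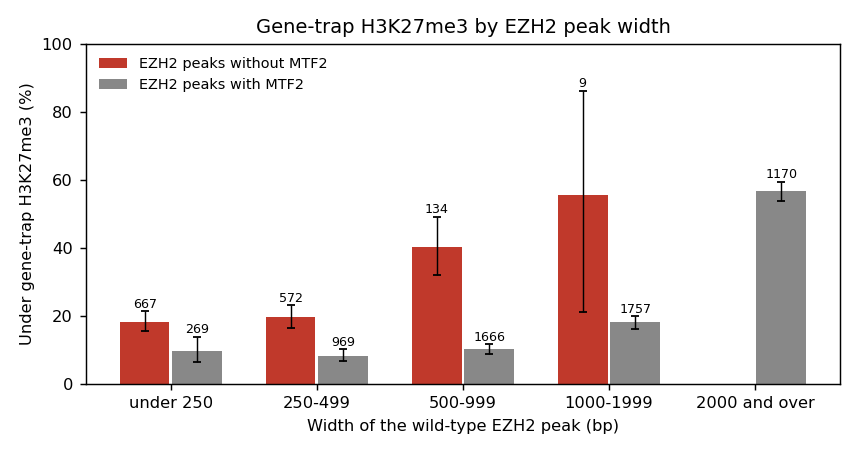
Share of wild-type EZH2 peaks overlapped by gene-trap H3K27me3 (vertical axis, %) by width of the EZH2 peak (horizontal axis, bp), without MTF2 in red and with MTF2 in grey, with exact 95% intervals and the number of peaks above each bar. Peaks without MTF2 stand higher in each width class that holds them, and none is 2000 bp or wider.

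The widest peaks without MTF2 under gene-trap H3K27me3 included several in domains of developmental genes. Among them were those near Nr2f2 and Hoxa10, as above, near Hoxc8 (1053 bp) and near Prdm8, a neural regulator (1036 bp). Another, of 987 bp near Pdia4, overlapped H3K27me3 in gene-trap cells and not in wild-type cells, as did a neighbour of 206 bp. Gene-trap H3K27me3 covered 82.5% of the HoxB domain, 90.0% of the HoxC domain and 86.7% of the Nr2f2 domain.

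By domain, H3K27me3 domains with EZH2 and no MTF2 held gene-trap H3K27me3 in 7 of 314 (2.23%, 0.901 to 4.54), against 645 of 4150 with EZH2 and MTF2 (15.5%, 14.5 to 16.7). The domains without MTF2 were narrower, with median widths of 2661 bp, against 4474 bp. From 2 to 4 kb the shares were 1.84% without MTF2 and 2.42% with MTF2, and from 4 to 8 kb 2 of 45 (4.44%, 0.543 to 15.1) and 12.7%. At 8 kb and over they were 2 of 9 (22.2%, 2.81 to 60.0) and 62.2% (58.2 to 66.1). So few wide domains lacked MTF2 that their own shares are loosely bounded. At promoters with EZH2 and no MTF2, gene-trap H3K27me3 was found at 3 of 306 genes (0.980%), Tcam1, Rnf212, a meiotic crossover factor, and a predicted gene, and gene-trap EZH2 at none. With MTF2 the counts were 561 (16.9%) and 154 (4.64%) of 3322.

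H3K4me3 at these sites was mostly found in both genotypes. In gene-trap cells it overlapped 894 EZH2 peaks without MTF2 (64.7%, 62.1 to 67.2), against 93.7% with MTF2 and 88.2% of all EZH2 peaks. Of the 860 without MTF2 that had H3K4me3 in wild-type cells, 810 had it in gene-trap cells (94.2%, 92.4 to 95.7), against 99.0% with MTF2 and 98.3% of all. Of the 522 without MTF2 that lacked it in wild-type cells, 84 had it in gene-trap cells (16.1%, 13.0 to 19.5), against 39.0% with MTF2 and 27.4% of all. Outside H3K27me3, where promoters were most frequent, 204 of 208 had H3K4me3 in both genotypes (98.1%).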

How the data were processed

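The members and gene lists were chosen with earlier results of these data known. Per the labels, 7 peak lists from 14 libraries were used, and 8 other libraries were not analysed here. Per the submitters' processing notes, CASAVA, BWA 0.7.10-r789 and MACS2 2.7 were used on mm10 (GRCm38); their roles, the threshold, the control and how libraries were combined are not given in the sources used here. In the deposited lists the values are region starts and ends in bp, with no height, score or count, so depth is unknown. Starts were converted to count from 1.

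Overlaps needed 1 bp. Promoters were windows of 1 kb on either side of TSSs of protein-coding transcripts in GENCODE M21 (basic set, 21840 genes). CpG and GCG were counted in the GRCm38 sequence, in the central 1 kb. Shares have exact Clopper-Pearson 95% intervals and medians order-statistic 95% intervals. Weighting used 5 width classes of the EZH2 peak or 4 of the H3K27me3 domain. No test was run, since each group has 1 list. Peaks were named by rank: the widest at any promoter, per mark class and per gene list, the widest elsewhere or under gene-trap H3K27me3, all kept ones, and those nearest to and farthest from MTF2. Predicted genes were passed over, and a few genes it selects are left out. RefSeq promoters (250 bases before to 50 after each start) gave the share with GCG. Overlap code was checked on simulated regions. Tools were Python 3.11.15, pandas 2.3.3, SciPy 1.17.1 and pysam 0.24.0.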

Additional observations from a re-analysis of the deposited data

How the results depend on the processing

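Requiring no MTF2 within 1 kb left 627 EZH2 peaks, with 53.1% at promoters, 69.2% with H3K27me3, 80.4% with H3K4me3, 5.26% under gene-trap H3K27me3, 83.7% with gene-trap H3K4me3, and medians of 4.9 CpG and 3.4 GCG per 100 bp. Taking EZH2 peaks of at least 500 bp left 143, with 39.9% at promoters, 92.3% with H3K27me3, 52.4% with H3K4me3, 1.40% with gene-trap EZH2, 41.3% under gene-trap H3K27me3, 53.8% with gene-trap H3K4me3, and medians of 599 bp in width, 508 bp to MTF2 and 1.9 GCG. Allowing MTF2 on under 50% of the EZH2 peak gave 1637 peaks with a median width of 273 bp, and taking autosomes alone gave 1357 peaks. Promoters held 58.2% with a window of 2.5 kb, 10.6% with the TSS inside the peak and 50.9% with genes of every biotype. A mark on at least 50% of the peak gave 0.217% with gene-trap EZH2. A mark within 1 kb gave 86.8% for H3K27me3, 81.8% for H3K4me3, 3.62% for gene-trap EZH2, 25.1% for gene-trap H3K27me3 and 84.7% for gene-trap H3K4me3. In the central 300 bp the medians were 4 CpG and 2.67 GCG, against 7.67 and 5.67 with MTF2. Over the whole peak they were 3.93 and 2.58, against 6.15 and 4.63 with MTF2.

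Differences, without minus with MTF2, shrank at equal peak width to -11.3 points for promoters (from -20.5), -6.13 for H3K27me3, -22.0 for H3K4me3, -0.433 for gene-trap EZH2, -22.3 for gene-trap H3K4me3, -1.3 CpG and -1.1 GCG. For gene-trap H3K27me3 the difference was -0.322 points (-2.66 to 2.14), without a clear direction, and became 12.02 at equal peak width. Among peaks in H3K27me3 the difference was 2.89 points (0.236 to 5.69). Its interval counts each peak singly, although peaks of one domain are not independent. At equal domain width the difference reversed to -2.96, and the intervals without and with MTF2 overlapped in each width class. That weighting was chosen after seeing the data, as was leaving out Hox domains, which gave 17.8% under gene-trap H3K27me3. The cause of these shifts was not tested. Of the 70 values recomputed, 28 stayed within the interval of the value reported or, for the number of peaks, within 1.5 times of it. No paired analysis was possible because each list stands for both libraries of a group, and no replicate could be left out for the same reason.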
